A study of Mus musculus with 4 samples.

Results

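The subject is a set of 10 mouse genes of the tripartite motif (TRIM) family that are linked to interferon, out of 55487 annotated genes in the count table. They were taken by name: Trim30a, Trim30b, Trim30c, Trim30d, Trim12a, Trim12c, Trim34a and Trim21 on chromosome 7, Trim14 on chromosome 4 and Trim56 on chromosome 5. RNA came from LPC-HRas cells, a mouse line labelled as liver cancer cells and grown without stimulation. The control group held 2 libraries, and the other group held 2 libraries from the same line with the genotype UBXN9-overexpressing, here called UBXN9 1 and UBXN9 2. UBXN9, a UBX-domain protein that binds the ATPase VCP, is encoded by Aspscr1. The vector, its promoter and whether the libraries of a group came from separate cultures are not given in the sources used here, so the spread behind each p-value is that between these libraries and may be technical.

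TRIM proteins typically carry a RING domain, B-boxes and a coiled coil, and most members act as ubiquitin ligases. Many TRIM genes are switched on by interferon through STAT and IRF transcription factors, and their products sense, block or degrade viral components or tune the signalling that leads to interferon. The chromosome 7 cluster of the mouse is the counterpart of the human region with TRIM5, TRIM6, TRIM22 and TRIM34, and it has gained extra copies in rodents.

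Of the 10 genes, 9 had enough counts to test and 8 rose in UBXN9-overexpressing cells, at an adjusted p under 0.05 in edgeR's quasi-likelihood test. Trim30c, with 0 control counts, and Trim30d, with 10 and 1, met the count filter only through the UBXN9 libraries. Their direction was thus all but fixed by the filter, and their calls and their part in the median are descriptions only. Among all 13230 genes tested, 5.06% were called higher (2.38% lower, 7.44% in either direction), or 669 genes higher; that count was 373 without control 2, 1611 without UBXN9 1 and 1464 without UBXN9 2, while the set kept 8 or 9 calls in these fits. The fold changes were largest among the Trim30 genes: Trim30a rose 26.2-fold and Trim30d 35.1-fold. Trim30c was at least 41.4-fold higher with a floor of 3 counts over the control group. Trim14, Trim12a, Trim12c, Trim34a and Trim21 rose between 3.71-fold and 6.82-fold. Trim56 was 1.71-fold higher and did not pass, and Trim30b had too few counts to test. In all 10 genes both UBXN9 libraries lay above both controls, which held for 25.0% of all genes tested. Over the 9 tested genes the log2 fold change had a median of 2.74, against -0.006 over all genes tested; the bulk measurement cannot tell more RNA per cell from more cells that express a gene.

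Totals ran from 21814969 to 26292686 estimated counts per library. Aspscr1 (ENSMUSG00000025142, chromosome 11) stood at 92.1 and 115 CPM in control cells and 392 and 380 in overexpressing cells, a 3.72-fold rise (edgeR adjusted p = 0.00144) that follows the labels. CPM are read counts put on the same scale across libraries with TMM factors, which correct for differences in RNA composition. Of 5 hepatocyte markers, Alb and Cyp3a11 had no counts in any library, and Hnf4a and Ttr had at most 5 counts in a library. Apoa1 had means of 0.525 CPM in control cells and 1.02 in overexpressing cells and did not pass (edgeR adjusted p = 0.375). The 3 endothelial markers summed to 1.86 to 2.98 CPM in control cells and 3.73 to 4.33 in overexpressing cells, and 0 were called. Of 6 biliary and progenitor markers, Sox9 and Spp1 had mean control levels of 171 and 2341 CPM, Krt19 fell from a mean of 8.72 to 2.72 CPM (edgeR adjusted p = 0.0294), Afp stayed under 1 CPM and Krt7 and Epcam had at most 4 counts in a library. Of 9 lymphoid markers 4 had no counts in any library (Cd3e, Cd3g, Cd8a and Nkg7), and the summed level of all 9 was 0.0382 to 0.0907 CPM in control cells and 0.113 to 0.398 in overexpressing cells. The 8 myeloid markers, with S100a8 at 0 throughout, summed to 56.7 to 57.1 CPM in control cells and 66 to 74.1 in overexpressing cells, most of it Cd14; Lyz2 rose 3.53-fold (edgeR adjusted p = 0.0408). The 4 stellate and fibroblast markers summed to 198 to 219.9 CPM in control cells and 321 to 402 in overexpressing cells, and among them Col1a1 rose 4.59-fold (edgeR adjusted p = 0.00136) while Col1a2, Pdgfrb and Dcn did not pass. The part of these markers in the results on the Trim genes was not tested. The median absolute log2 difference between libraries was 0.199 in the control group and 0.313 in the UBXN9 group. With 2 libraries on each side, the lowest two-sided p of an exact permutation test is 0.333.

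The promoters of the set are shown because genes that respond to type I interferon often carry an interferon-stimulated response element (ISRE) near their start, a short DNA site through which interferon acts on transcription. RefSeq promoter windows on GRCm38.p6, from 250 bases before to 50 after the gene start, matched 9 of the 10 genes, all but Trim14. An ISRE-like pattern, GAAA followed by any 2 letters and GAAA again, was searched on both strands, and a match on the other strand reads TTTC, any 2 letters, TTTC. The following stretches run 5′ to 3′ on the gene's strand, with the pattern in capitals.
Trim30a, first start, chr7:104465205-104465244, minus strand: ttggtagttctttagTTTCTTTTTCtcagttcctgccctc
Trim30a, second start, chr7:104446099-104446138, minus strand: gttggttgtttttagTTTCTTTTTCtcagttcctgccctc
Trim30d, chr7:104507866-104507905, minus strand: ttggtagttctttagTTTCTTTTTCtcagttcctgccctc
Trim12a, chr7:104315466-104315500, minus strand: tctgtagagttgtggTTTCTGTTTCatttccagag
Trim12c, chr7:104353354-104353393, minus strand: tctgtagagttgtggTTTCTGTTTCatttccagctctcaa
Trim34a, chr7:104244452-104244486, plus strand: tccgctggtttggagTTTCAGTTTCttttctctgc
Trim21, chr7:102565453-102565484, minus strand: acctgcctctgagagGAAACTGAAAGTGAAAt

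The pattern was present in the windows of 6 of the 9 matched genes (66.7%), against 3.44% of all 32851 promoter windows of the same length and 3.99% of the genes with a window. In Trim21 the capitals cover 2 overlapping matches. Trim30a and Trim30d share all 40 letters of their stretch, and Trim12a and Trim12c carry the same 10 letters. The first letter of the pattern lay 36 bases before the first start of Trim30a, 41 before that of Trim30d and 29 before that of Trim12c. In Trim12a and Trim34a it lay 10 bases after the start, and in Trim21 13 bases after it, so only 3 genes held a match wholly before the start. The window of Trim30c held no exact match: its most similar stretch differed from that of Trim30a at 6 of 40 positions, of which 1, T3C, lies in the pattern (Trim30a letter first, counted from 1 at the first capital).
Trim30c, chr7:104400891-104400930, minus strand: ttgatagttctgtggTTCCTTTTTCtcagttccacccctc

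The windows of Trim56 and of Trim30b, whose RefSeq start lies inside the longer annotated gene, also had no exact match. Near its start the Trim56 window holds tttcagtttt, which differs from the pattern on the other strand in its last letter only. Inexact matches were searched for only in the Trim30 genes, and the one of Trim56 was seen outside that search. Other windows may hold them, and their share over all windows was not counted. Of 44 other Trim genes with a window 3 held the pattern: Trim2, Trim5 and Trim26. A second pattern, TTCNNNGAA, the outline of the site bound by STAT dimers (GAS), was found in the window of Trim30c alone among the set, and in 8.3% of all windows. These are matches of letters in the reference sequence, not measured binding. To show the context of a match before the start, a match after it and no exact match, the windows of Trim30a, Trim21 and Trim56 are given up to base 30 after the start.
Trim30a, chr7:104465164-104465443, minus strand: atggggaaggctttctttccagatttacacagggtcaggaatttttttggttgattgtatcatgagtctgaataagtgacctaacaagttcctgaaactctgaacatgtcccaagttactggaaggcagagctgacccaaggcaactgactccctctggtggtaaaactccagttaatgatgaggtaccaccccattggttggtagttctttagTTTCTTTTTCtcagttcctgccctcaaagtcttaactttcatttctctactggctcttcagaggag
Trim21, chr7:102565453-102565732, minus strand: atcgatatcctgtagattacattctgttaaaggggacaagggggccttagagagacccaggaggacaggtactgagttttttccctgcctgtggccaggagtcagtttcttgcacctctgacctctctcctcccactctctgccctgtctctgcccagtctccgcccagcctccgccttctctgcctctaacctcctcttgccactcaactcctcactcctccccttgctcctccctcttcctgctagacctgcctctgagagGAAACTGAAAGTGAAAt
Trim56, chr5:137116178-137116457, minus strand: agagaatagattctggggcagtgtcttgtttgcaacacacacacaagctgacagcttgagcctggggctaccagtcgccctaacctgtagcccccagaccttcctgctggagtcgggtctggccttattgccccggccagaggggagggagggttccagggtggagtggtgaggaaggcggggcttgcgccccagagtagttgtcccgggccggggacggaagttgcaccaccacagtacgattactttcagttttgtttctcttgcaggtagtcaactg

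**Figure D1:**
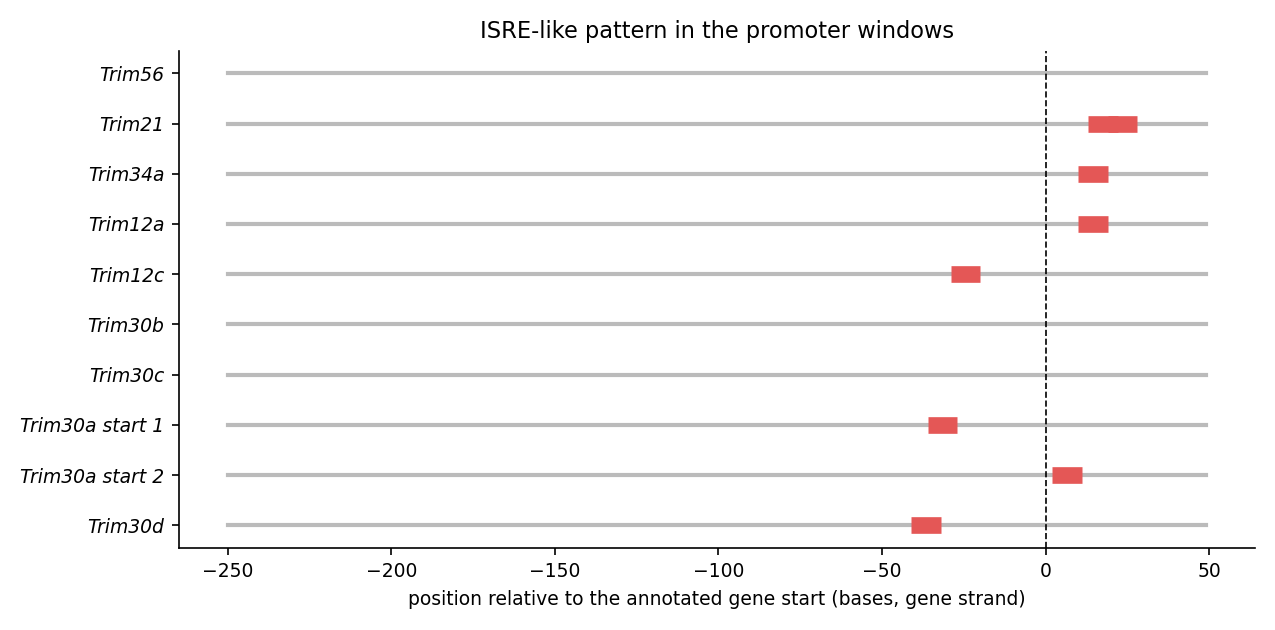
Position of the ISRE-like pattern (red) in the RefSeq promoter windows (grey) of the 9 matched genes, in bases from the gene start on the gene's own strand; Trim30a has 2 annotated starts. The matches lie within 41 bases of a start, and Trim56, Trim30b and Trim30c have no exact match.

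Trim30a (ENSMUSG00000030921, chromosome 7, 104409025 to 104465193) encodes a protein known to restrain NF-kB signalling by promoting the loss of the adaptors TAB2 and TAB3. It had 35 and 14 counts in control 1 and control 2, and 404 and 863 in UBXN9 1 and UBXN9 2. These correspond to 1.34, 0.635, 20.1 and 32.5 CPM in that order. The lower UBXN9 library was far above both controls, and within each group the libraries also stood apart. The log2 difference of 4.71 had an SE of 0.42 (edgeR adjusted p = 0.00113), and it was 5.36 without control 1.

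Trim30d (ENSMUSG00000057596, chromosome 7, 104470014 to 104507849), the neighbour and close relative of Trim30a, had 10 and 1 counts in control cells and 109 and 282 in overexpressing cells. Its levels were 0.382, 0.0454, 5.43 and 10.6 CPM. The groups did not overlap, and control 2 was near 0. The log2 difference of 5.14 had an SE of 0.69 (edgeR adjusted p = 0.00606). Its size rested on the few control counts, with 7.30 without control 1 and 4.38 without control 2; both leave-one-out fits passed the test.

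Trim30c (ENSMUSG00000078616, chromosome 7, 104382065 to 104400837) had 0 counts in both controls, and 44 and 76 counts in overexpressing cells, or 2.19 and 2.87 CPM. With a floor of 3 counts over the control group, it was at least 41.4-fold higher in UBXN9-overexpressing cells (edgeR adjusted p = 0.00387). With control 1 or control 2 left out, the floor rests on fewer reads and the bound was 18.9-fold and 22.5-fold. Trim30b (ENSMUSG00000052749, chromosome 7, 104355382 to 104369884) had 0 counts in control cells and 2 and 5 in overexpressing cells, so it was at least 2.42-fold higher, at a depth too low for the test. That bound was 1.1-fold without control 1, 1.31-fold without control 2 and 1.6-fold without UBXN9 2. The floor allows for counting error in the control counts only. The UBXN9 counts are taken as exact, so these bounds are not confidence limits.

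Trim12a (ENSMUSG00000066258, chromosome 7, 104299894 to 104315466) and Trim12c are mouse relatives of the human retrovirus restriction factor TRIM5. Trim12a had 3.21 and 2.4 CPM in control cells and 20.1 and 17.6 CPM in overexpressing cells. Its log2 difference of 2.74 had an SE of 0.26 (edgeR adjusted p = 0.00144). Trim12c (ENSMUSG00000057143, chromosome 7, 104338754 to 104353362) had 2.48 and 1.95 CPM in control cells and 11 and 15.4 CPM in overexpressing cells, with a log2 fold change of 2.57 and an SE of 0.30 (edgeR adjusted p = 0.00358). In both genes the lowest UBXN9 library was several times the highest control, while the order of the UBXN9 libraries differed.

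Trim34a (ENSMUSG00000056144, chromosome 7, 104244457 to 104262234) had 5.3 and 4.13 CPM in control cells and 19.6 and 18.9 CPM in overexpressing cells, a 4.07-fold rise (edgeR adjusted p = 0.00363). The UBXN9 libraries were close to each other and apart from both controls. Trim21 (ENSMUSG00000030966, chromosome 7, 102557921 to 102565486) encodes a cytosolic receptor for antibodies, which sends antibody-coated particles to the proteasome with the help of VCP. It lies 1.68 Mb from the rest of the set on that chromosome. It had 11.5 and 8.44 CPM in control cells and 36 and 38 CPM in overexpressing cells, a 3.71-fold rise (edgeR adjusted p = 0.00343).

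Trim14 (ENSMUSG00000039853, chromosome 4, 46493781 to 46536141) encodes a member without a RING domain that acts as an adaptor in MAVS signalling and protects the DNA sensor cGAS. It stood at 12.2 and 10.7 CPM in control cells and at 73.5 and 83.2 CPM in overexpressing cells. The difference was large against the spread in either group, with a log2 fold change of 2.77 and an SE of 0.18, the smallest SE in the set (edgeR adjusted p = 0.000389). Nans, a gene on the opposite strand, shares 1356 of the 4338 exonic bases of Trim14, and its log2 difference came to 0.11 (edgeR adjusted p = 0.822). The library kit named in the labels does not mark strand, so reads from the shared bases cannot be told apart.

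Trim56 (ENSMUSG00000043279, chromosome 5, 137105644 to 137116209), a RING ligase that acts on STING and in signalling from the receptor TLR3, had the highest CPM of the set. It stood at 87.9 and 57.8 CPM in control cells and at 100.4 and 149.1 CPM in overexpressing cells. The groups did not overlap, but the gap between control 1 and UBXN9 1 was smaller than the gap between the libraries within either group. The log2 difference of 0.78 had an SE of 0.27 (edgeR adjusted p = 0.147). The call depended on the setting: the adjusted p was 0.0378 by DESeq2, 0.0295 without control 1 and 0.695 without control 2. Without UBXN9 1 it was 1.95e-06 and without UBXN9 2 it was 0.0557.

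**Figure D2:**
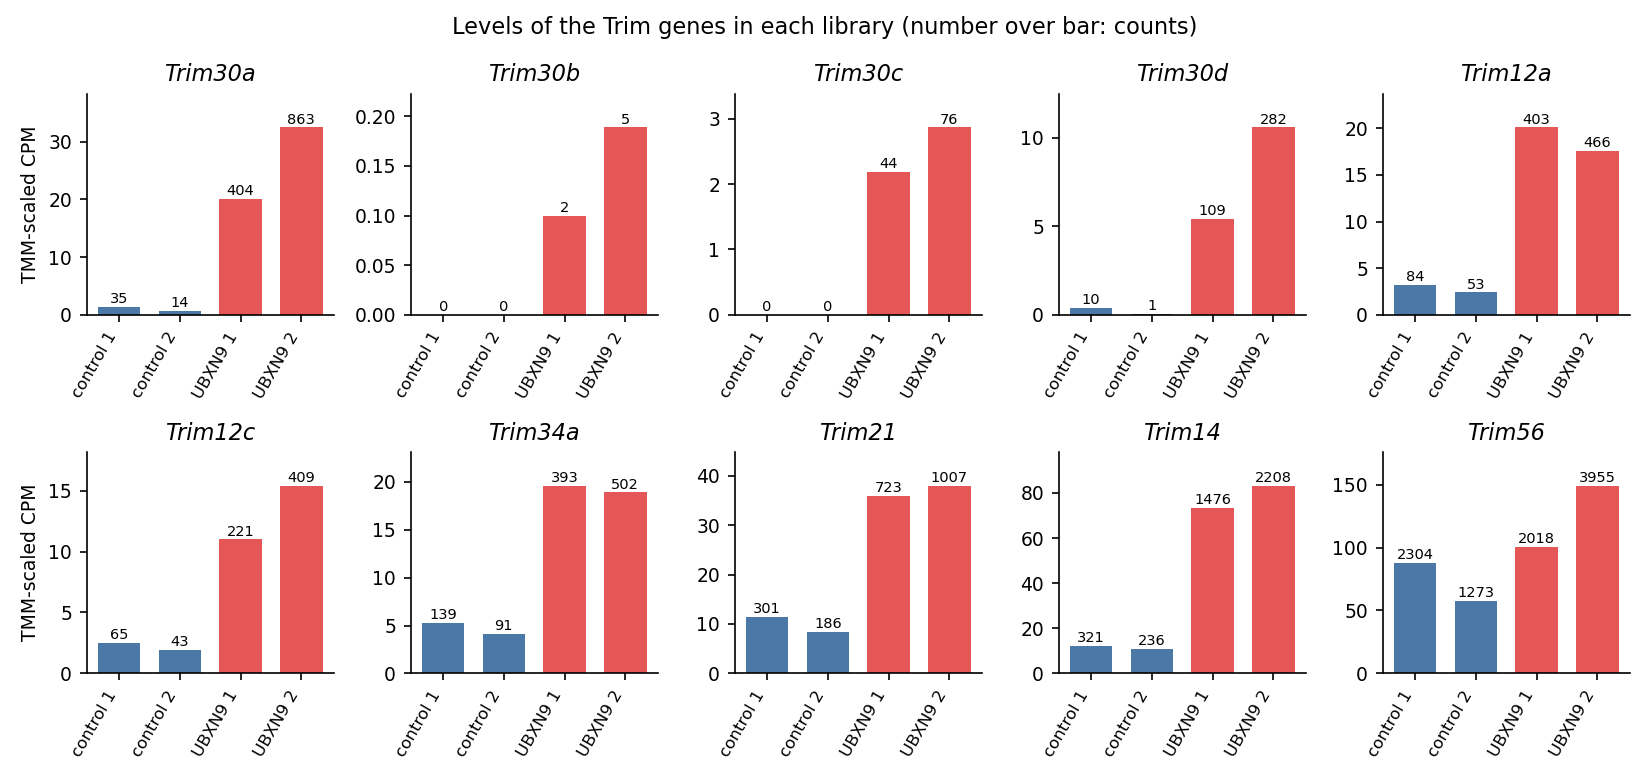
TMM-scaled CPM of the 10 genes in each of the 4 libraries, 1 panel per gene with its own axis from 0 (blue: control, red: UBXN9-overexpressing, numbers over bars: counts). In every panel both red bars are above both blue bars; Trim30b and Trim30c have 0 counts in control cells, and the gap is smallest for Trim56.

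Levels of different genes were compared per kilobase of exon (CPM divided by the length of all annotated exons in kb). For some genes this length far exceeds the longest coding transcript, as for Trim12a (5781 against 1531 bases) and Trim14 (4338 against 1582). For Trim12c both are 3740. The order below holds for exon length, and an order by transcript length was not made. In control cells Trim56 was highest with a mean of 7.85, then came Trim21 with 2.68, Trim14 with 2.65 and Trim34a with 1.82. The values of Trim21 and Trim14 overlapped, as did those of Trim12c at 0.592 and Trim12a at 0.485, while Trim30a stood at 0.24 and Trim30d at 0.0568. In UBXN9-overexpressing cells Trim14 came first with 18.1, ahead of Trim56 with 13.4 and Trim21 with 9.96. Trim34a at 7.42 and Trim30a at 6.4 overlapped, Trim12c at 3.53 overlapped with Trim12a at 3.25, and Trim30d at 2.14 overlapped with Trim30c at 1.47. Trim30b remained last at 0.0191.

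Libraries of the same group also differed, mostly in the same direction across the set. In all 8 genes with counts in both controls, control 2 was below control 1, as in 51.4% of all genes tested. UBXN9 2 exceeded UBXN9 1 in 7 of the 9 tested genes, as in 47.8% of all genes tested, with log2 differences of 0.97 for Trim30d, 0.69 for Trim30a and 0.57 for Trim56. Trim12a and Trim34a were the exceptions, at -0.19 and -0.05. Over all genes tested, which do not count as replicates of each other, the log2 ratio of the UBXN9 libraries had a Spearman correlation of 0.424 with exon length, and that of the controls -0.325; the part of length in the members' differences was not tested.

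Close copies share sequence, so reads may be divided between them. Of all stretches of 100 bases in the longest coding transcript, 22.6% for Trim34a were also found in Trim34b, 4.79% for Trim30a in Trim30d, and 8.38% for Trim12a in Trim5. For Trim12c the share found in any other gene was 7.64%, and Trim30b, Trim30c, Trim21, Trim14 and Trim56 had 0 such stretches. With stretches of 50 bases the shares were larger, at 41.3% for Trim34a, 33.7% for Trim12c, 23.5% for Trim12a, 8.29% for Trim30d and 6.53% for Trim30a, and under 1% for Trim30b, Trim30c, Trim21 and Trim56. The read length is not given in the sources used here. Summing the copies before the fit, a choice made after the values were seen, left the changes in place. Trim30a to Trim30d together had 1.72 and 0.68 CPM in control cells and 27.8 and 46.2 CPM in overexpressing cells, a log2 fold change of 4.92 (edgeR adjusted p = 0.00134). Trim12a and Trim12c together had 5.69, 4.35, 31.1 and 33 CPM, with a log2 fold change of 2.67 (edgeR adjusted p = 0.000874), and the sum of Trim34a and Trim34b had 2.04. The Trim12 sum leaves out Trim5, the gene that shares most with both. Trim5 held 17.9% of the 50-base stretches of Trim12a and 24.2% of those of Trim12c.

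The 7 neighbouring members, without Trim21, span 263 kb of chromosome 7. Trim6, at the edge of this cluster, had 1.14 and 0.454 CPM in control cells and 0.697 and 0.905 CPM in overexpressing cells, so its groups overlapped (edgeR adjusted p = 0.998). Trim5 had 0 and 1 counts in control cells and 2 and 18 in overexpressing cells, a ratio of 20.7 with an exact Clopper-Pearson 95% interval of 3.31 to 858 that covers counting error only. Without UBXN9 2 it was 4.8 with an interval of 0.25 to 283, so the size of this ratio rests on that library. Trim34b had 0 counts in control cells and 3 and 4 in overexpressing cells. Of the 50-base stretches of Trim5, 38.1% were also found in other genes, 24.7% in Trim12c. For Trim34b 59.0% were found in Trim34a. Whether the few counts of Trim5 and Trim34b are reads of these copies was not tested. In a window of 2.15 Mb that reaches 100 kb beyond the outermost members, 169 other genes are annotated, 119 of them olfactory receptor genes, and 136 of the 169 had no counts at all. Of the 169, 9 could be tested and edgeR called 0, against 7.44% of all genes tested. At an unadjusted p under 0.05 edgeR gave 2 higher and 1 lower, limma-voom called 1 higher and DESeq2 called 0. Only 1 of the tested genes, Gm47248, lies inside the cluster, and it did not pass (edgeR adjusted p = 0.0674). Its 609 exonic bases all lie in exons of Trim34a, on the opposite strand. The kit does not mark strand, so its reads cannot be told apart from those of Trim34a. Gm47248 had 0 and 2 counts in control cells and 21 and 13 in overexpressing cells. Of the untested genes there, Trim5, Trim34b, Gm15133 and Gm16464 lay above both controls in both UBXN9 libraries, at low counts. The others had at most 1 count. The window thus says little about the closest neighbours. Trim68, between Trim21 and the cluster, had a log2 fold change of 0.69 and did not pass (edgeR adjusted p = 0.289).

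**Figure D3:**
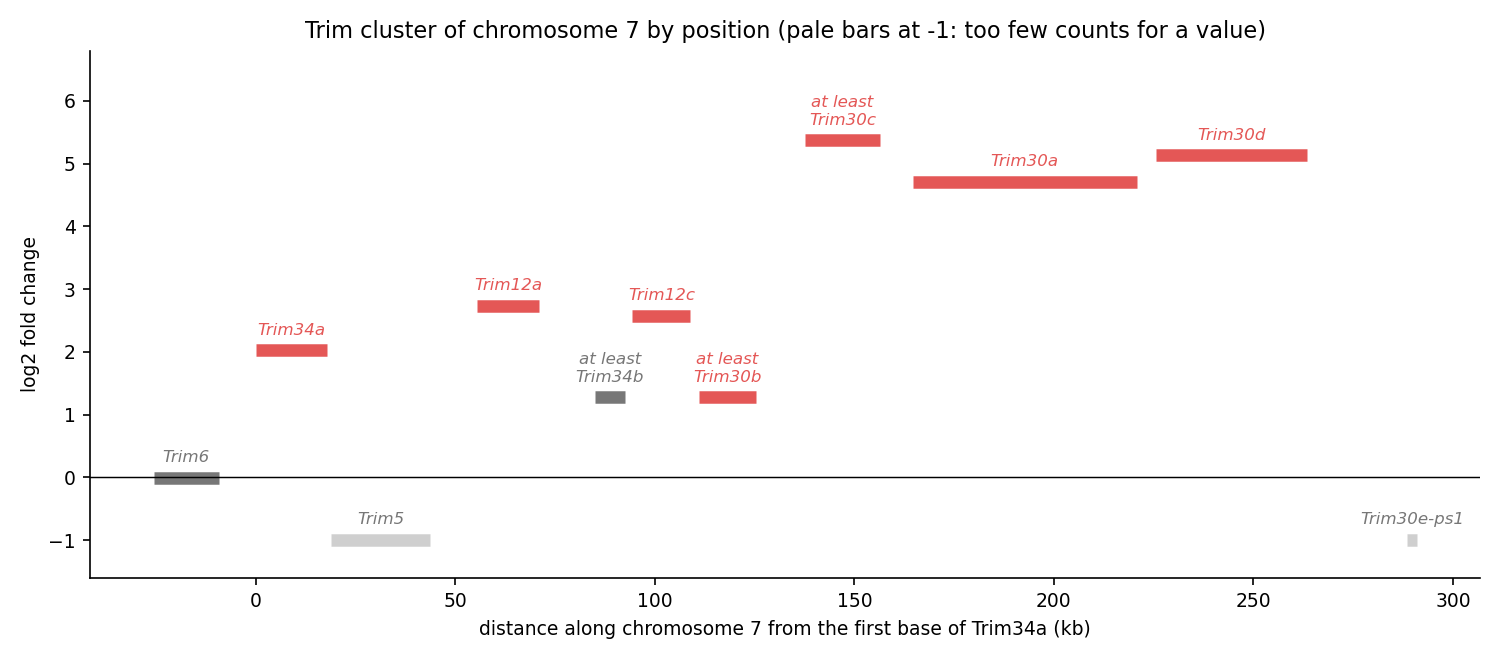
Trim genes of the chromosome 7 cluster by distance in kb from the first base of Trim34a (bar length: gene length) against log2 fold change, UBXN9-overexpressing over control (red: members, grey: other Trim genes). The bars of Trim34a, Trim12a and Trim12c lie between 2.02 and 2.74, Trim30a and Trim30d at 4.71 and 5.14, Trim6 near 0; genes marked "at least" are plotted at their bound, and pale bars have no value.

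The rest of the family served as the comparison. Of 59 other Trim genes 32 could be tested: 2 rose, 2 fell and 28 did not pass, with a median log2 fold change of 0.00. The share called in either direction was 12.5%, against 7.44% of all genes tested. Trim26, a RING ligase gene in the major histocompatibility complex region, had 45.9 and 41.9 CPM in control cells and 104 and 100.3 in overexpressing cells, a 2.33-fold rise (edgeR adjusted p = 0.00494). Trim25, the ligase that helps to activate the RNA sensor RIG-I, had 186 and 158 CPM in control cells and 290.0 and 398 CPM in overexpressing cells. Its log2 difference came to 1.00 (edgeR adjusted p = 0.0334), and it did not pass without control 2 (adjusted p = 0.231). Trim54, a muscle member of the family, fell from 6.64 and 6.81 CPM to 0.498 and 0.264 CPM, a log2 fold change of -4.16 (edgeR adjusted p = 0.00144). With 10 and 7 counts in overexpressing cells, it met the count filter only through the control libraries. Its direction was thus all but fixed by the filter, and its call and its part in the share above are descriptions only. Trim16, linked to selective autophagy, had 22.5 and 23.9 CPM in control cells and 10.6 and 11 CPM in overexpressing cells and fell by 1.10 on the log2 scale (edgeR adjusted p = 0.0173), and this call was lost without control 1 (0.0618) or control 2 (0.168). Trim38 had 0 counts in every library.

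**Figure D4:**
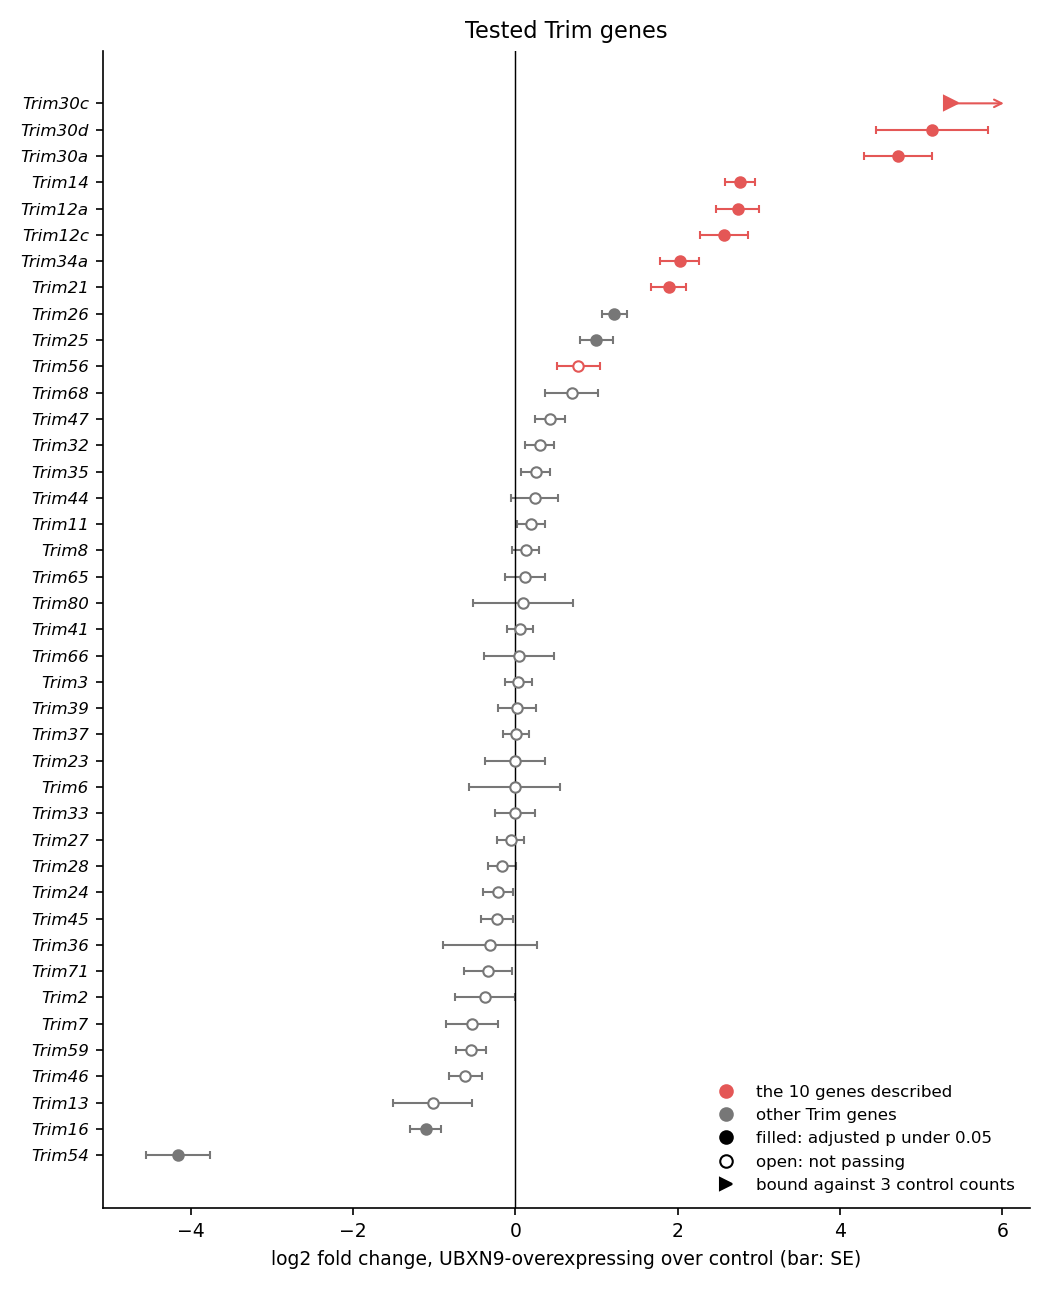
Log2 fold change, UBXN9-overexpressing over control, of the tested Trim genes (red: members, grey: others; bars: SE; filled: adjusted p under 0.05 in edgeR). The 8 called members lie at 1.89 and above, and the other Trim genes that passed are Trim25, Trim26, Trim16 and Trim54.

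Genes of proteins that TRIM members work with were taken as a list of partners. Of 19 partner genes, all tested, 2 rose and 17 did not pass, with a median log2 fold change of 0.13. The share called was 10.5%, against 7.44% of all genes tested in either direction. Irf7, the transcription factor that amplifies type I interferon, rose 6.22-fold from 103 and 100.5 to 672 and 593 CPM (edgeR adjusted p = 0.000389). Nlrp3, the inflammasome sensor, had a log2 fold change of 1.84 (edgeR adjusted p = 0.0491), a call lost without control 1 (0.326), without control 2 (0.116) and with DESeq2 (0.0956). Without either control the list had 1 call, and without UBXN9 1 it had 4. Vcp, which works with both UBXN9 and Trim21, had 598 and 640.1 CPM in control cells and 731 and 867 CPM in overexpressing cells and did not pass (edgeR adjusted p = 0.308). Mavs, the adaptor that Trim14 joins, had a log2 fold change of -0.26 (edgeR adjusted p = 0.490).

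Of 16 interferon signalling genes 9 rose and 7 did not pass, with a median log2 fold change of 0.78, against -0.006 over all genes tested. The share called was 56.2%, against 7.44% of all genes tested in either direction. The list was written with earlier results of these data known, so these shares are descriptions. Among the transcription factors, Stat2 rose 2.99-fold and Irf1 3.67-fold, next to Irf7, which stands on both lists. The feedback inhibitors Usp18 and Socs1 rose 6.52-fold and 2.48-fold. Ifnb1, the gene of interferon beta, was low, with 0.0763 and 0.227 CPM in control cells and 1.39 and 1.7 CPM in overexpressing cells. With 2 and 5 control counts it met the count filter only through the UBXN9 libraries. Its direction was thus all but fixed by the filter, and its call and its part in the list are descriptions only. Its log2 fold change of 3.35 passed (edgeR adjusted p = 0.0206), with 2.73 and no call without control 1 (0.109) and 4.25 without control 2. Jak1 and Irf9 rose 1.73-fold and 1.64-fold; both calls were lost without control 1 (adjusted p = 0.141 and 0.443) and without control 2 (0.373 and 0.281), and with library totals alone (0.0633 and 0.0532). Irf9 also did not pass with upper-quartile factors (0.0546).

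By the Euclidean distance between centred log2 CPM over the 4 libraries, with a prior count of 2 added before the log, the genes outside the Trim family nearest to Trim30a were Plce1, Slfn5 and Slfn4. The distances were 0.339, 0.399 and 0.48. The order depended on the prior count: with 0.5 Slfn5 came first, Slfn4 ranked 42 and Plce1 59, and with 5 Slfn4 came first, Slfn5 ranked 6 and Plce1 54. Slfn5 had 0.534 and 0.227 CPM in control cells and 6.72 and 10.4 CPM in overexpressing cells. Slfn4 had 0.305, 0.0454, 5.18 and 8.26 CPM, and Plce1, with 1 and 0 counts in control cells, had 0.0382, 0, 1.94 and 2.87 CPM. These values chose the genes and are given as a description.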

How the data were processed

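RNA-seq of 4 libraries, 2 per group, was analysed from a table of estimated counts per gene that the authors deposited. The build GRCm38.p6, HTSeq and HISAT2 2.1.0 are named, without their roles, in the submitters' processing notes; annotation, read length, strand setting and the handling of reads with several positions are not given in the sources used here. Estimated counts were rounded to whole numbers. The 241 loci outside the annotation (0.386% of counts) were left out. Positions came from GENCODE M21, which held 55227 of the 55487 annotated genes.

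Genes were filtered with filterByExpr, scaled with TMM factors and tested with the edgeR 4.0.16 quasi-likelihood test in R 4.3.3, with Benjamini-Hochberg adjustment over all genes tested and a threshold of 0.05. The fit was tested on simulated data with known changes, where it recovered most of the larger changes and fewer of the smaller ones, and the share of false calls was above the threshold. Alternatives used DESeq2 1.42.0, limma 3.58.1 (limma-voom), other scalings and filters, a replicate block and each library left out; other prior counts for likeness to Trim30a and the Trim5 ratio without a library were added after seeing the data. Figures used matplotlib 3.10.9.

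The Trim genes and all gene lists were chosen with earlier results of these data known. Named genes were Aspscr1, all 10 members, other Trim genes past the threshold and 6 fixed ones, list genes past the threshold with Vcp, Mavs and Ifnb1, and the 3 genes nearest to Trim30a. The values of 1 interferon signalling gene that passed are not reported here. Marker genes, Nans, Gm47248, Gm15133, Gm16464, Trim2 and Trim68 were named after their values were seen. A planned comparison of protein sequences was not made, and shared stretches of GENCODE transcripts were used in its place.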

Additional observations from a re-analysis of the deposited data

How the results depend on the processing

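The count of members called higher stayed between 7 and 9 over 15 alternatives, and 0 were called lower in each. The count of interferon signalling genes called higher was 9, and 6 to 12 over the alternatives. All genes called numbered 984, of which 669 were higher and 315 lower. They numbered 1827 with no filter on low counts (1144 higher, 683 lower), 398 at an adjusted p under 0.01 (310 higher, 88 lower) and 508 to 2782 when a library was left out (373 to 1611 higher, 135 to 1318 lower). Other Trim genes called higher were 1 with library totals alone, 1 at an adjusted p under 0.01 and 1 to 4 without a library; those called lower were 1 at 0.01 and 1 to 5. Partners called higher were 1 with upper-quartile factors, with library totals alone, with a filter of 5 CPM in 2 libraries and at 0.01, and 1 to 4 without a library, with 0 to 1 lower. In the chromosome 7 window genes called higher were 2 with no filter, 1 with limma-voom and 0 to 2 without a library, with 0 to 1 lower. Trim6, at -0.01, changed sign to 0.003 with RLE factors, 0.010 with DESeq2, 0.116 with limma-voom, 0.812 without control 1 and 0.162 without UBXN9 1, and was -0.505 without control 2; none of these passed. The cause of these shifts was not tested.

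Same-numbered libraries did not deviate together (correlation -0.373), so the replicate block pairs nothing the labels name; with it 932 genes were called (640 higher, 292 lower), the window had 1 higher, Trim6 was at 0.104, and Jak1 (0.0732) and Irf9 (0.136) were not called. With the crossed replicate block, added after seeing the data, 3137 genes were called (1776 higher, 1361 lower), with 4 other Trim genes lower, 5 partners higher and 1 lower, 2 window genes higher and 1 lower, and Trim6 at 0.055.

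With 2 libraries per group, few counts limit Trim30b, Trim30c, Trim5 and Trim34b, for which no reliable fold can be given. Trim30c could not be fitted under the filter of 5 CPM.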

Other observations

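Over the tested genes with a promoter window, 3.81% held the ISRE-like pattern, and of the 469 called higher 88 held it (18.8%). The ratio of Trim12a to Trim12c counts was 1.29 and 1.25 in the controls, and 1.82 and 1.14 in UBXN9 1 and UBXN9 2, so the UBXN9 libraries lay on either side of the controls. Gm47248, an antisense gene, shares all of its 609 exonic bases with Trim34a, which has 2592, so the reads of these bases cannot be told apart. Gm47248 was counted 0 and 2 times in control cells and 21 and 13 times in overexpressing cells and did not pass (edgeR adjusted p = 0.0674).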
